A study of Mus musculus with 12 samples.

Results

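Interferon-stimulated genes were followed in the spleens of male ICR mice, an outbred stock, that had received busulfan and then a transplant of gut microbiota. The 49 genes were listed by symbol as known targets of type I and type II interferon; the rule used no measured value, but the list was drawn up with earlier results of these data known. Of the 49, 47 were listed among the 18221 genes of the tables, and all 47 passed the filter for low values, which asked for 1 RPKM or more in 3 mice or more and left 12671 genes. Mx1 and Mx2 were not analysed here.

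Each of the 4 groups held 3 mice, which entered the experiment at 3 weeks of age and were sampled at 8 weeks. Con-sa mice were dosed with saline and received no busulfan. B-sa mice received a single injection of busulfan (40 mg/kg), an alkylating drug that depletes blood-forming cells, and saline. B+Con-FMT mice received the same busulfan injection and then, for 2 weeks, fecal microbiota transplantation (FMT) by mouth from control donors. B+A10-FMT mice received busulfan and FMT from donors dosed with alginate oligosaccharide (AOS, 10 mg/kg), a short-chain product of seaweed alginate. Donor material was the luminal content of the small intestine. It was pooled within each donor group, so the mice of an FMT group did not have separate donors. The comparisons ask what busulfan did to these genes in the spleen, and whether either transplant changed them after busulfan.

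Interferons bind receptors at the cell surface and activate JAK kinases. Type I interferon then acts mainly through a factor complex that contains IRF9 and binds the interferon-stimulated response element (ISRE), while type II interferon acts mainly at the gamma-activated site (GAS). The targets block viral replication, sense foreign nucleic acid, attack vacuoles that hold microbes, cut peptides for display to T cells and feed back on the pathway, and a low level of many of them is kept up in resting immune tissue.

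The stretches in front of the transcription starts are shown for the 5 members that passed the test in some comparison and for Isg15, whose ISRE is a classic example. The capitals mark the ISRE core (GAAA, any 2 bases and GAAA again) and the GAS (TTCNNNGAA), searched on both strands; on the other strand the core reads TTTC, any 2 bases and TTTC, and matches may overlap. The sequences are RefSeq's (GRCm38.p6, the patch release of mm10), read along the gene's strand and ending before the start of the gene.
Gbp3 (chr3:142559924-142560015, plus strand, 2 overlapping ISRE cores): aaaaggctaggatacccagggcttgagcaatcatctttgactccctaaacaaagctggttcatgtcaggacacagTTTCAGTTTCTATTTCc
Gbp2 (chr3:142620543-142620662, plus strand, 1 ISRE core): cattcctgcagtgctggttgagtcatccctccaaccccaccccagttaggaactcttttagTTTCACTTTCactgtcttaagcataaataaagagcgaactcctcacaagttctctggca
Irgm2 (chr11:58214857-58214976, plus strand, 1 ISRE core and 1 GAS): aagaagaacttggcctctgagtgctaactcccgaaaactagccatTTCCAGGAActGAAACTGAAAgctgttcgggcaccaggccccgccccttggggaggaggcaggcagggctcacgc
Eif2ak2 (chr17:78882573-78882752, minus strand, 1 GAS): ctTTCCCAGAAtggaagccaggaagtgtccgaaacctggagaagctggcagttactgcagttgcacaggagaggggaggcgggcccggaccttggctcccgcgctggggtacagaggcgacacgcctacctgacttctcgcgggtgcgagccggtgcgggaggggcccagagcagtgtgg
Trim25 (chr11:88999283-88999402, plus strand, neither motif): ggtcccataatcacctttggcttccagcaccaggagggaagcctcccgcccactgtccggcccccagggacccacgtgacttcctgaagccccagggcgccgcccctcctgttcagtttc
Isg15 (chr4:156200819-156200938, minus strand, 3 overlapping ISRE cores): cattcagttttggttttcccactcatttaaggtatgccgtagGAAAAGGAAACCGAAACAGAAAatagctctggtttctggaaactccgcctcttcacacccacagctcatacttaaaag

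A promoter was given for 36 of the 49 members. The ISRE core lay within the 250 bases before the start in 16 of the 36 (44.4%), against 3.46% of 27025 genes with a promoter, and the GAS in 11 (30.6%), against 8.13%. The median log2 fold change of B+A10-FMT over B+Con-FMT was 0.28 for the 16 members with a match and 0.29 for the 20 without one, a difference that was not tested. Many members are neighbours in the genome. With gaps of at most 500 kb, 25 of the 47 fell into 10 clusters, of which the largest was Gbp5, Gbp7, Gbp3 and Gbp2 on chromosome 3 (142496934 to 142638008). Neighbouring family members resemble each other in sequence, so reads may have been split between them. This applies also to Ifit3, Oas1a and Gbp6, whose near copies Ifit3b, Oas1g and Gbp10 were listed separately.

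The members were well expressed. Values are RPKM (reads per kilobase of transcript, scaled to the mapped reads of the library), summed over the listed transcripts of a gene, and so can be set side by side between genes. Over the 12 mice, mean levels ran from 4.35 RPKM for Ifi44 to 244 RPKM for Ifi27l2a, a small protein of mitochondrial and nuclear membranes. Isg20, an exonuclease that degrades viral RNA, followed at 184 RPKM, and Sp100, a nuclear body protein, at 145 RPKM. Sequencing depth, estimated from the spacing of the lowest RPKM values, was 13400000 to 14200000 reads per mouse. Globin transcripts, of red cells, took 23.3% to 32.4% of the summed RPKM.

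The mice of a group differed from each other in nearly all of these genes at once. In Con-sa, mouse 2 had the highest level of 42 of the 47 members and mouse 3 the lowest level of 43. Over all 12671 genes tested, Con-sa mouse 2 was the highest of its group for 29.2% and mouse 3 the lowest for 29.1%. In B-sa, mouse 3 was the lowest for 41 of the 47 members (35.0% of all genes). The highest was mouse 1 for 30 (45.8% of all genes) and mouse 2 for 17 (25.2%). B+A10-FMT mouse 1 was the lowest of its group for 45 (40.4% of all genes) and mouse 2 the highest for 40 (35.5% of all genes). The B+Con-FMT mice were the most alike. No mouse was highest for more than 26 members (mouse 3, 43.0% of all genes) or lowest for more than 27 (mouse 1, 35.3%).

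**Figure D1:**
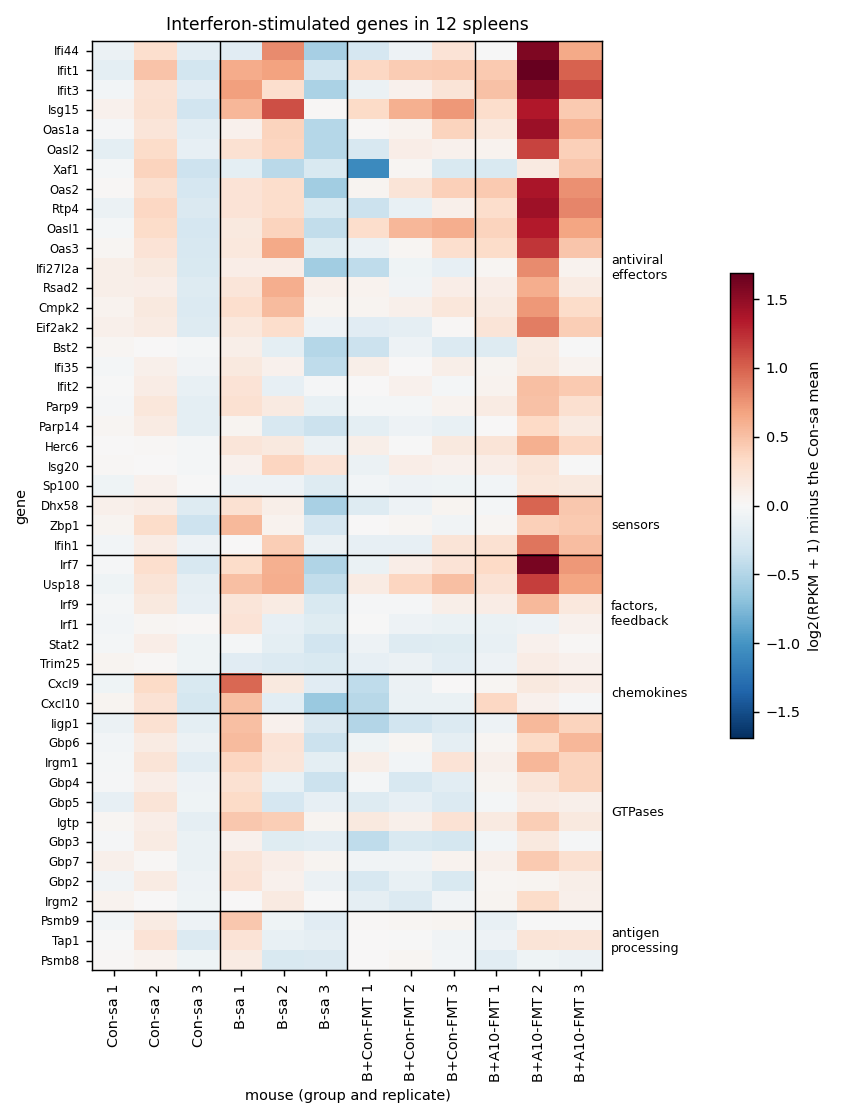
Level of the 47 members (rows, by role) in the 12 mice (columns, by group and replicate). Colour gives log2(RPKM + 1) minus the mean of the 3 Con-sa mice, red for higher and blue for lower; B+A10-FMT mouse 2 was the highest of all 12 mice for 31 members and B-sa mouse 3 the lowest for 23.

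The lowest mouse of B+A10-FMT was the same for most roles. B+A10-FMT mouse 1 was the lowest of its group for 22 of 23 antiviral effectors, all 3 nucleic acid sensors, all 6 transcription factors and feedback genes, all 10 GTPases and all 3 antigen processing genes. Among the chemokines it had the highest Cxcl10. At the top of B-sa, mouse 1 was the highest for 9 of 10 GTPases, both chemokines and all 3 antigen processing genes. It was also the highest for 4 of 6 transcription factors and feedback genes and 2 of 3 sensors. For the 23 antiviral effectors mouse 2 was the highest for 13 and mouse 1 for 10. The difference between roles was not tested. The Ifi200 family, interferon-inducible DNA sensors that are not members, followed the members' order of the mice in part. B+A10-FMT mouse 1 was the lowest of its group for 10 of 12. Con-sa mouse 3 was the lowest for 7 (mouse 1 for 5) and B-sa mouse 3 for 7 (mouse 2 for 5). These 2 mice numbered 3 were the lowest for 43 and 41 of the 47 members. The Trim30 and Trim12 cluster (ubiquitin ligases, not members) followed the order more closely. Of its 7 tested genes, Con-sa mouse 3 was the lowest for 6, and B-sa mouse 3 and B+A10-FMT mouse 1 for all 7. Con-sa mouse 2 was the highest for 6 and B+A10-FMT mouse 2 for 5.

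The mean of log2(RPKM + 1) over the 47 members put a size on this. Con-sa mice stood at 4.60, 4.79 and 4.45, B-sa mice at 4.86, 4.78 and 4.36, B+Con-FMT mice at 4.51, 4.62 and 4.68, and B+A10-FMT mice at 4.71, 5.24 and 4.94. The group means were 4.62 ± 0.17, 4.67 ± 0.27, 4.60 ± 0.09 and 4.96 ± 0.26 (SD, n = 3 each). No B+Con-FMT mouse reached the lowest B+A10-FMT mouse, whereas Con-sa and B-sa each had mice above it. The same mean over all genes tested stayed between 3.78 and 3.86 in every mouse.

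**Figure D2:**
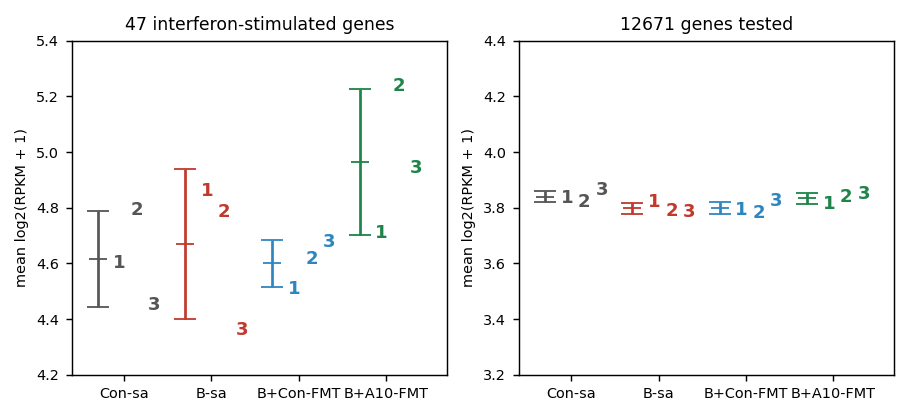
Mean of log2(RPKM + 1) in each mouse over the 47 members (left) and over the 12671 genes tested (right), on axes of equal height; numbers are replicate numbers, and the bars give the group mean and SD of 3 mice. The members spread over 4.36 to 5.24, and the genes tested over 3.78 to 3.86, where scaling and averaging over many genes leave little room for spread.

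Gene by gene, the SD between mice of a group, pooled over the 4 groups, had a median of 0.22 on the log2 scale for the members (0.07 to 0.56), against 0.10 for all genes tested. Of the 47 members, 44 lay above that median and 25 above the 90th percentile of all genes (0.20). The antiviral effectors varied most among the large role groups (median SD 0.33) and the GTPases less (0.17). The lowest SD was that of Trim25 (0.07), a ubiquitin ligase that activates the RNA sensor RIG-I, and the highest that of Ifi44 (0.56). Within B+A10-FMT, Ifi44 differed 3.59-fold between the lowest and the highest mouse, and within B-sa 3.34-fold. The median member differed 1.35-fold between the lowest and highest B+A10-FMT mouse and 1.5-fold in B-sa (1.13 and 1.16 for all genes tested).

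The comparison of the 2 FMT groups had the most members called. Of B+A10-FMT over B+Con-FMT, 45 of the 47 members had a log2 fold change above 0 (61.2% of all genes tested), and the median over the 47 was 0.30 (0.05 for all genes). By limma's test with Benjamini-Hochberg adjustment over all genes, 4 members passed (adjusted p under 0.05), all higher: Gbp3, Irgm2, Gbp2 and Eif2ak2. This is 4 of 47, where 7.58% of all genes were called higher, 2.78% lower and 10.4% in either direction, so the share called was near the background. At an unadjusted p under 0.05, 16 members were higher and none lower (20.1% and 8.78% of all genes). The mice of the 2 groups did not overlap for 22 members that were higher (23.8% of all genes) and 2 that were lower (11.2%).

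Of the members that passed, 3 of 4 were GTPases of the guanylate-binding protein and IRG families, which gather on vacuoles that hold bacteria or parasites. Gbp3 was 21.2, 24.7 and 21.5 RPKM in the B+A10-FMT mice and 16.0, 18.2 and 17.6 RPKM in the B+Con-FMT mice, a log2 fold change of 0.36 (SE 0.09, adjusted p = 0.0296). Irgm2 was 36.6, 43.9 and 37.5 RPKM in B+A10-FMT and 31.7, 30.0 and 34.0 RPKM in B+Con-FMT (log2 fold change 0.29, SE 0.08, adjusted p = 0.0303). Gbp2 was 25.1, 25.3 and 26.2 RPKM in B+A10-FMT and 20.0, 22.3 and 20.3 RPKM in B+Con-FMT (log2 fold change 0.28, SE 0.08, adjusted p = 0.0486). For each of the 3 genes every B+A10-FMT mouse was above every B+Con-FMT mouse, and the difference was 1.21-fold to 1.28-fold. Con-sa mice held 20.1 to 24.2 RPKM of Gbp3 and 23.0 to 27.0 RPKM of Gbp2, and for both genes every B+Con-FMT mouse was below that range. Irgm2 differed from this: Con-sa mice held 33.6 to 36.8 RPKM, B+Con-FMT mouse 3 lay inside that range, and B+A10-FMT mice 2 and 3 lay above it.

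All 10 GTPases had a log2 fold change above 0 between the FMT groups, also under the other scalings, with a median of 0.29. Gbp6 was below 0 with NM transcripts only (-0.19), and Igtp without B+A10-FMT mouse 2 (-0.01). Gbp7 missed the threshold (log2 fold change 0.28, adjusted p = 0.0513). Iigp1, an IRG protein loaded early onto parasite vacuoles, had a larger difference and a wider error (log2 fold change 0.62, SE 0.21, adjusted p = 0.0825).

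Eif2ak2 encodes PKR, a kinase that halts translation when it binds double-stranded RNA. It was 10.7, 17.1 and 12.3 RPKM in the B+A10-FMT mice and 7.71, 7.96 and 9.14 RPKM in the B+Con-FMT mice, a 1.53-fold difference (log2 fold change 0.61, SE 0.16, adjusted p = 0.0323). Every B+A10-FMT mouse exceeded the B+Con-FMT mice, and mouse 2 stood well above the rest. Con-sa mice held 7.59 to 9.99 RPKM, a range that took in all 3 B+Con-FMT mice and lay below all 3 B+A10-FMT mice.

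Several other antiviral effectors held larger differences that did not pass the test, and here the B+A10-FMT mice were far apart. Ifit3 belongs to a family that traps viral RNA. It was 16.4, 34.9 and 25.8 RPKM in the B+A10-FMT mice against 10.5, 12 and 13.4 RPKM in the B+Con-FMT mice (log2 fold change 0.98, SE 0.34, adjusted p = 0.0958). Rtp4, a chaperone of membrane receptors, was 20.9, 47.1 and 30.5 RPKM against 12.9, 15.3 and 17.9 RPKM (log2 fold change 0.99, SE 0.29, adjusted p = 0.0611). Both differences were 1.98-fold, the groups did not overlap, and B+A10-FMT mouse 2 was far above mouse 1. Oas2, an enzyme whose product switches on RNase L, was 12.9, 25.6 and 16.5 RPKM against 9.60, 10.9 and 12.6 RPKM (log2 fold change 0.64, SE 0.29, adjusted p = 0.182). All 23 antiviral effectors had a log2 fold change above 0, with a median of 0.32, but 3 of them fell below 0 under some alternative. These were Ifi35 under median-of-ratios scaling and without B+A10-FMT mouse 2 or B+Con-FMT mouse 2, Oasl1 with NM transcripts only (-0.27), and Isg15 without B+A10-FMT mouse 2 (-0.18). Ifi27l2a, the most abundant member, was 245, 416 and 249.8 RPKM against 177, 227 and 216.5 RPKM (log2 fold change 0.51, SE 0.26, adjusted p = 0.217). Again only mouse 2 stood far out, while the groups did not overlap. Isg15, a ubiquitin-like modifier, was 87.4, 182 and 97.0 RPKM against 88.9, 108 and 118 RPKM (log2 fold change 0.15, SE 0.34, adjusted p = 0.809). The groups overlapped for Isg15, and only mouse 2 of B+A10-FMT lay above the B+Con-FMT mice. Without that mouse the log2 fold change of Isg15 was -0.18.

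**Figure D3:**
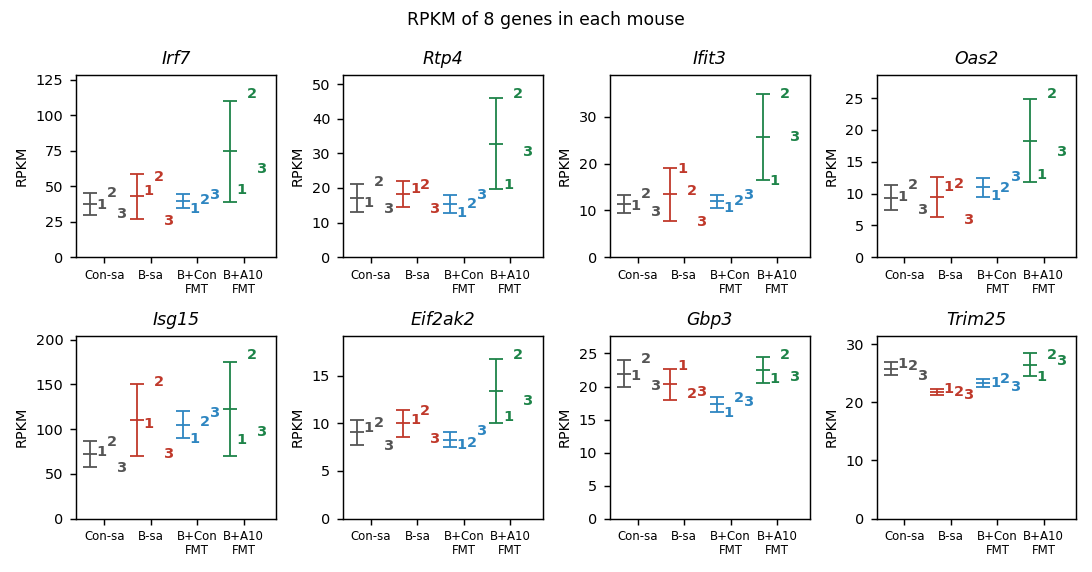
RPKM of 8 members in each mouse on axes that start at 0; numbers are replicate numbers, and the bars give the mean and SD of 3 mice. B+A10-FMT mouse 2 is the highest of the 12 for all 8 genes, while Gbp3 and Trim25 vary little within a group.

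Among the sensors, Ifih1 (MDA5), which detects long double-stranded RNA, was 9.81, 16.0 and 12 RPKM in B+A10-FMT and 7.27, 7.22 and 9.54 RPKM in B+Con-FMT (log2 fold change 0.58, SE 0.17, adjusted p = 0.0550). The groups did not overlap. The related helicase Dhx58 (LGP2) was 7.88, 16.9 and 11.4 RPKM against 6.81, 7.51 and 8.39 RPKM (log2 fold change 0.55, SE 0.26, adjusted p = 0.197), with mouse 1 inside the B+Con-FMT range. Irf7, the factor that amplifies production of type I interferon, was 47.2, 115 and 62.2 RPKM in B+A10-FMT and 34.2, 40.2 and 43.7 RPKM in B+Con-FMT (log2 fold change 0.81, SE 0.37, adjusted p = 0.186). Mouse 2 was the highest of all 12 mice for these 3 genes. All 6 transcription factors and feedback genes had a log2 fold change above 0, with a median of 0.22, and Irf1 fell below 0 under median-of-ratios scaling and without B+A10-FMT mouse 3.

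The chemokine Cxcl10, which draws activated T cells, was 22.3, 18.1 and 16.9 RPKM in B+A10-FMT and 12.2, 15.9 and 15.9 RPKM in B+Con-FMT (log2 fold change 0.36, SE 0.27, adjusted p = 0.402). There was no overlap, and here mouse 1 was the highest. The antigen processing genes had no common direction, with 1 of 3 above 0. Psmb8, a catalytic subunit of the immunoproteasome, was 131, 141 and 139 RPKM in B+A10-FMT and 149, 152 and 144 RPKM in B+Con-FMT (log2 fold change -0.11, SE 0.09, adjusted p = 0.421). Every B+A10-FMT mouse was below every B+Con-FMT mouse for Psmb8, but the difference did not pass the test.

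**Figure D4:**
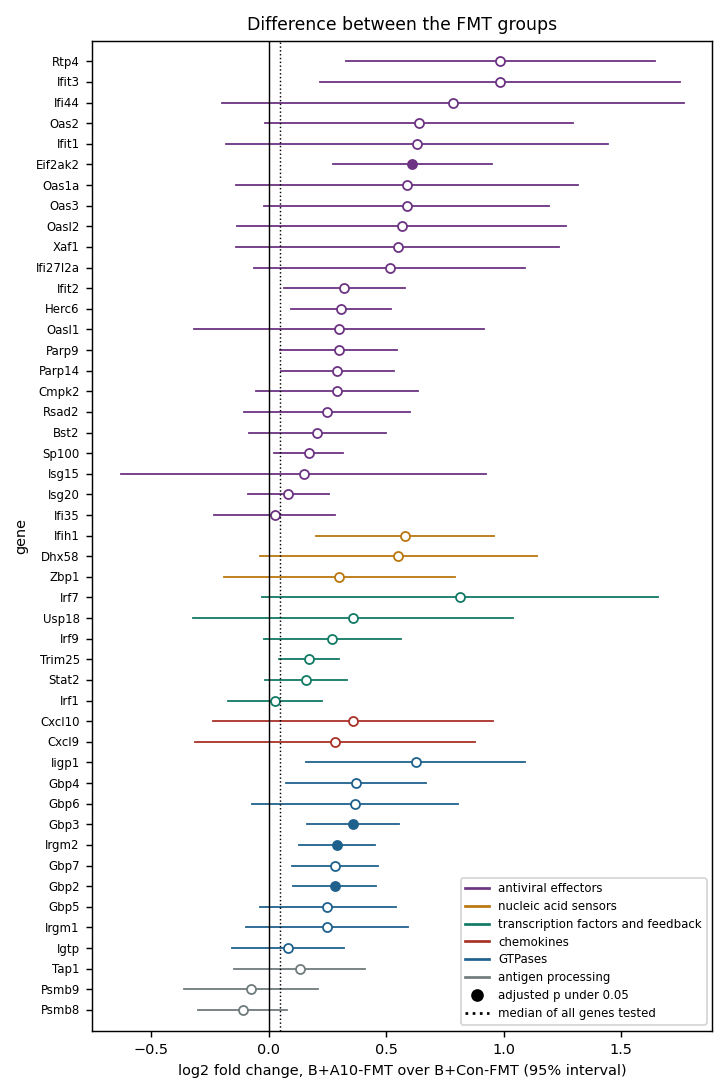
Log2 fold change of B+A10-FMT over B+Con-FMT on log2(RPKM + 1) for the 47 members, by role, with limma's 95% intervals; filled points passed the test and the dotted line is the median of all genes tested (0.05). The widest intervals are those of Ifi44 and Irf7, and Psmb8 and Psmb9 lie below 0.

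**Figure D5:**
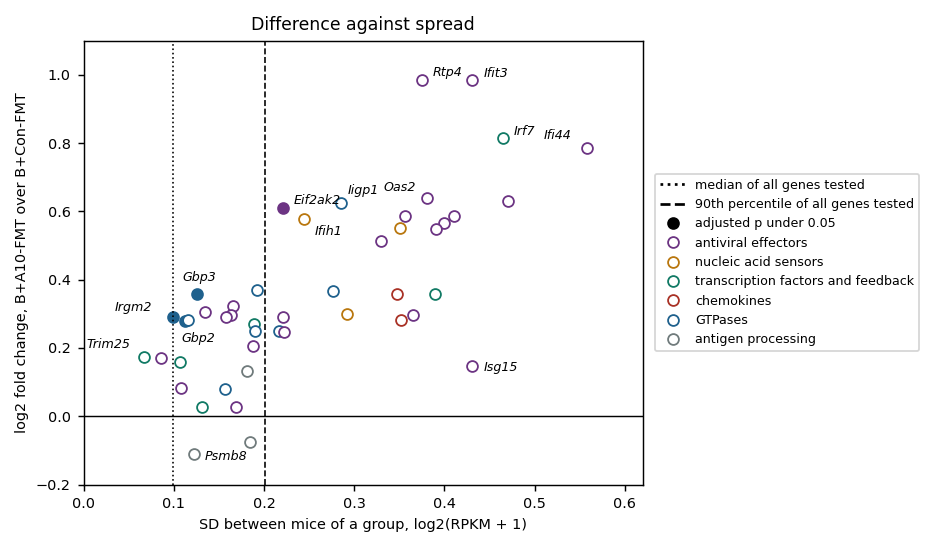
Log2 fold change of B+A10-FMT over B+Con-FMT against the pooled SD between mice of a group, for the 47 members, coloured by role; filled points passed the test. The largest differences (Rtp4, Ifit3, Irf7 and Ifi44) belong to genes with an SD above the 90th percentile of all genes (0.20, dashed line), and 3 of the 4 genes that passed lie near the median SD of all genes (0.10, dotted line).

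The count of calls rested on single mice, and so did the share of all genes called, which was 10.4% with every mouse. Without B+A10-FMT mouse 2, none of the 47 members passed, with 42 still above 0 and a median of 0.22, and the share of all genes fell to 1.75%. None passed without B+Con-FMT mouse 1 or mouse 2 either (2.41% and 3.87% of all genes). Without B+A10-FMT mouse 1, 11 passed (7.65% of all genes), and without mouse 3, 2 passed (6.29%). Leaving out B-sa mouse 1, which enters only the shared spread, gave 7 (12.3%). In a fit of the 2 FMT groups alone 4 passed (8.02%), Gbp2, Gbp3, Gbp4 and Gbp5, so that the calls of Irgm2 and Eif2ak2 were lost. In the fit of all groups, Gbp3 and Irgm2 were called without any 1 mouse other than B+A10-FMT mouse 2 and B+Con-FMT mice 1 and 2. Eif2ak2 was lost also without B+A10-FMT mouse 3, and Gbp2 also without B+A10-FMT mouse 1 or 3, B+Con-FMT mouse 3, B-sa mouse 2 and Con-sa mouse 1 or 3. Other settings ended calls as well. With no filter on low values all 4 were lost. Median-of-ratios scaling lost Irgm2 and Gbp2, NM transcripts only lost Gbp3, Gbp2 and Irgm2, and removal of the length trend lost Eif2ak2, Gbp2 and Irgm2. The p-values measure the spread between these mice.

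Markers of several cell types differed between the FMT groups as well. In bulk tissue fewer cells of a type and less RNA per cell cannot be told apart. The summed level of 3 marginal zone macrophage markers was 98.2 to 156 RPKM in B+A10-FMT and 58.7 to 92.3 RPKM in B+Con-FMT, and that of 7 red pulp macrophage markers was 743 to 876 RPKM and 472 to 578 RPKM. Con-sa mice had 92.4 to 108 RPKM and 614 to 638 RPKM. By mouse, B+A10-FMT mice 1, 2 and 3 had 143, 156 and 98.2 RPKM of marginal zone markers and 750, 876 and 743 RPKM of red pulp markers. Mouse 3 had the lowest sum of both lists, while mouse 1 was the lowest for 45 members, and mouse 2 had the highest sum of both and was the highest for 40 members. Endothelial markers were called higher for 4 of 5 genes, with sums of 75.5 to 80.1 RPKM against 59.9 to 66.6 RPKM. Monocyte markers were called higher for 2 of 5 (128 to 233 RPKM against 102 to 149 RPKM) and natural killer cell markers for 2 of 6 (26.7 to 44.8 RPKM against 22.1 to 31.0 RPKM). Siglech, which marks plasmacytoid dendritic cells, the main source of type I interferon, was 9.91, 14.2 and 11.8 RPKM in B+A10-FMT and 6.08, 5.39 and 6.21 RPKM in B+Con-FMT (log2 fold change 0.90, adjusted p = 0.000545). The whole list of 8 plasmacytoid dendritic cell markers, which includes the member Bst2, summed to 530 to 596 RPKM and 537 to 567 RPKM, with none of them at 0. Of the 8, 4 were above 0 and 4 below, with log2 fold changes from -2.44 to 0.90 and a median of 0.04, and Siglech was the single gene called. Acinar cell markers of the pancreas were 391 to 8180 RPKM in B+A10-FMT and 7140 to 11600 RPKM in B+Con-FMT. The 3 kidney markers summed to 0.71 to 3.19 RPKM in B+A10-FMT and 17.2 to 61.8 RPKM in B+Con-FMT, with Kap called lower. Of the 5 B cell markers Pax5 was called lower. The part of these cells in the differences of the members was not tested.

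Against busulfan alone, Trim25 was the single member that B+A10-FMT mice held at a higher level by the test. Of the 47 members, 40 had a log2 fold change above 0 (62.5% of all genes), with a median of 0.23 against 0.05. The background was 5.27% of all genes called, 4.0% higher and 1.27% lower. Trim25 was 24.3, 28.1 and 27.1 RPKM in B+A10-FMT and 22.3, 21.7 and 21.3 RPKM in B-sa (log2 fold change 0.27, SE 0.06, adjusted p = 0.0264), a 1.20-fold difference with no overlap between the mice. At an unadjusted p under 0.05, 12 members were higher (17.5% of all genes), 10 of them antiviral effectors, and none was lower (6.93%). The groups did not overlap for 5 higher members, and for no lower member (19.7% and 7.38% of all genes). In the same comparison all 3 marginal zone macrophage markers were above 0 (median 0.83, Siglec1 called), as were all 7 red pulp macrophage markers (median 0.38, Spic and Slc40a1 called) and all 6 natural killer cell markers (median 0.39, Klrb1c and Prf1 called). Of the 5 endothelial markers Cdh5 and Kdr were called higher, as were Csf1r of the monocyte markers and Il7r of the T cell markers. All 6 neutrophil markers were below 0 (median -0.42, none called), and the kidney marker Kap was called lower. The part of these cells in the members' values was not tested.

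Of the 23 antiviral effectors, 21 had a log2 fold change above 0, with a median of 0.37. Oas2 was 12.9, 25.6 and 16.5 RPKM in B+A10-FMT against 11.0, 11.6 and 5.81 RPKM in B-sa (log2 fold change 0.88, SE 0.29, adjusted p = 0.108). No values overlapped, and B-sa mouse 3 was far below the others. Ifit3 had a log2 fold change of 0.91 (SE 0.34, adjusted p = 0.144), and B-sa mouse 1 (18.8 RPKM) overlapped with B+A10-FMT mouse 1 (16.4 RPKM). Sp100 came closer to the threshold with a smaller difference, at 142, 169 and 165.5 RPKM against 139, 138 and 127 RPKM (log2 fold change 0.23, SE 0.07, adjusted p = 0.0606). Sp100 did not overlap between the groups. The GTPases were at a median of 0.14, with 8 of 10 above 0 and none called. The call of Trim25 was lost without mouse 2 or mouse 3 of either group and under median-of-ratios scaling, and the median of the members was 0.11 without B-sa mouse 3 and 0.36 without B-sa mouse 1.

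After busulfan alone, a single member passed the test. In B-sa versus Con-sa, 14.5% of all genes tested were called (4.73% higher and 9.78% lower), and 1 of the 47 members was: Trim25, lower at 22.3, 21.7 and 21.3 RPKM in B-sa against 26.6, 26.2 and 24.5 RPKM in Con-sa (log2 fold change -0.23, SE 0.06, adjusted p = 0.0243). Its groups did not overlap. The lower Trim25 here and the higher Trim25 in B+A10-FMT rest on the same B-sa mice. Under median-of-ratios scaling Trim25 was not called, and Igtp was called higher. Of the members, 29 had a log2 fold change above 0 (40.2% of all genes) and 18 below it, with a median of 0.05 against -0.04. At an unadjusted p under 0.05, 2 were higher and 2 lower (10.7% and 20.6% of all genes). The groups did not overlap for 1 higher and 2 lower members (11.2% and 22.8% of all genes). Beside these values, all 6 natural killer cell markers were called lower after busulfan, with summed levels of 26.1 to 27.5 RPKM against 75.8 to 83.9 RPKM in saline mice. The 6 neutrophil markers summed to 3490 to 5650 RPKM against 1960 to 2040 RPKM. Of the B cell markers 4 of 5 were called lower, and of the plasmacytoid dendritic cell markers 3 of 8 were: Irf8, Tcf4 and Siglech. Their part in the result was not tested.

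The largest log2 fold change after busulfan was that of Isg15, at 105, 152 and 72.2 RPKM in B-sa and 74.3, 85.2 and 56.3 RPKM in Con-sa (0.56, SE 0.34, adjusted p = 0.296). The mice overlapped, since B-sa mouse 3 lay within the Con-sa range. Igtp, an IRG GTPase, was 86.3, 83.9 and 64.7 RPKM against 63.9, 67.7 and 56.3 RPKM (log2 fold change 0.31, SE 0.11, adjusted p = 0.0768), and Isg20 181, 222 and 201 RPKM against 175, 173 and 169 RPKM (log2 fold change 0.22, SE 0.08, adjusted p = 0.0796). Isg20 did not overlap between the groups, and Igtp overlapped through B-sa mouse 3. The direction of the whole list depended on the mice, since its median was -0.06 without B-sa mouse 1, -0.03 without Con-sa mouse 3 and 0.20 without B-sa mouse 3. The call of Trim25 was lost without B-sa mouse 2 or 3 and without Con-sa mouse 1 or 2. Without B-sa mouse 1, 4 members were called, where 16.6% of all genes were: Isg20 was higher, and Parp14, Psmb8 and Trim25 were lower.

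In mice with transplants from control donors no member passed the test against busulfan alone. In B+Con-FMT versus B-sa, none of the 47 was called by limma (0.844% of all genes, 0.623% higher and 0.221% lower), and at an unadjusted p under 0.05 none was higher and 4 were lower (9.3% and 9.08% of all genes). Of the members, 36 had a log2 fold change below 0, with a median of -0.07 (all genes tested: 48.5% above 0, median 0.00). The groups did not overlap for 1 higher and 3 lower members (10.4% and 9.05% of all genes). All 10 GTPases were below 0, also under the other scalings, with a median of -0.18, but Gbp4, Gbp5, Gbp6 and Irgm1 were above 0 under at least 1 other alternative. Gbp2 was 20.0, 22.3 and 20.3 RPKM in B+Con-FMT and 28.7, 25.8 and 22.6 RPKM in B-sa (log2 fold change -0.28, SE 0.08, adjusted p = 0.115), and Irgm2 had a log2 fold change of -0.19 (SE 0.08, adjusted p = 0.204). Neither gene overlapped between the groups. Iigp1 had a larger difference and a wider error, at 9.43, 10.7 and 11.5 RPKM against 19.9, 14.4 and 11.4 RPKM (log2 fold change -0.46, SE 0.21, adjusted p = 0.277). Leaving out B-sa mouse 1 turned the median of the members to 0.05, with Psmb8 then called higher (3.69% of all genes called). Beside these values, all 8 pancreatic acinar markers were above 0 and did not overlap (median 3.29, none called), and all 6 neutrophil markers were below 0 (median -0.55, none called). Cd3e and Il7r of the T cell markers and Prf1 of the natural killer cell markers were called higher, and Siglech was called lower. Their part in the result was not tested.

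Set against the saline controls, B+Con-FMT had 1 member called of 47 (8.87% of all genes, 2.3% higher and 6.57% lower). Gbp3 was lower, at 16.0, 18.2 and 17.6 RPKM against 21.6, 24.2 and 20.1 RPKM in Con-sa (log2 fold change -0.33, SE 0.09, adjusted p = 0.0440). The mice did not overlap. This value and the higher Gbp3 in B+A10-FMT share the B+Con-FMT mice. Of the members, 20 had a log2 fold change above 0, with a median of -0.02 (all genes: 40% above 0, median -0.04). That median had no stable sign: it was 0.04 without Con-sa mouse 2, 0.00 without B+Con-FMT mouse 1 and -0.07 without Con-sa mouse 3. At an unadjusted p under 0.05 none was higher and 3 were lower (8.57% and 18.9% of all genes), and the groups did not overlap for 1 higher and 6 lower members (10.6% and 23.6%). The call of Gbp3 was lost without any 1 of the 3 B+Con-FMT mice, without Con-sa mouse 1 or 2, and without B+A10-FMT mouse 1 or 3. It was also lost with no filter, median-of-ratios scaling, NM transcripts only, the length trend removed, or the replicate number as a block. In this comparison 4 of 5 endothelial and 5 of 6 natural killer cell markers were called lower, as were 3 of 8 plasmacytoid dendritic cell markers, and all 8 pancreatic acinar markers were above 0 with none called (median 1.79). Their part in the value of Gbp3 was not tested.

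B+A10-FMT versus Con-sa gave no call among the members by limma (0.41% of all genes, 0.118% higher and 0.292% lower) but the most members at an unadjusted p under 0.05, with 17 higher and none lower (7.12% and 6.38% of all genes). Of the 47, 42 had a log2 fold change above 0 (51.8% of all genes), and the median over the 47 was 0.29 (0.01 for all genes). That median was 0.18 without B+A10-FMT mouse 2 and 0.19 without Con-sa mouse 3, and 0.38 without B+A10-FMT mouse 1 or Con-sa mouse 2. The groups did not overlap for 11 higher and no lower members (11.7% and 9.91% of all genes). Ifit3 was 16.4, 34.9 and 25.8 RPKM in B+A10-FMT and 11.0, 13.6 and 9.75 RPKM in Con-sa (log2 fold change 1.05, SE 0.34, adjusted p = 0.256). Herc6, a ligase that attaches ISG15 to proteins, differed less but more evenly, at 11.6, 15.4 and 12.9 RPKM against 9.88, 10 and 9.63 RPKM (log2 fold change 0.39, SE 0.10, adjusted p = 0.134). Neither gene overlapped. Irf7 had a log2 fold change of 0.89 (SE 0.37, adjusted p = 0.346). Beside these values, all 3 marginal zone macrophage markers were above 0 (median 0.58, none called), and so were 6 of 7 red pulp macrophage markers (median 0.27, Slc40a1 called). All 6 natural killer cell markers were below 0 (median -0.61, Ncr1 called). So were 7 of 8 plasmacytoid dendritic cell markers (median -0.27, none called) and all 5 B cell markers (median -0.27, none called). All 6 neutrophil markers were above 0 (median 0.58, none called). Kap and Slc34a1 of the kidney markers were called lower. Their part in the result was not tested.

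The genes upstream of the members were measured too. Of 43 pathway genes (ligands, receptors, kinases and signal factors, sensors and adaptors, and MHC class I), 36 were listed and 33 tested. Among the ligands, Ifnb1 was listed at 0 in 10 of 12 mice and Ifng stood at 0.37 to 1.44 RPKM, so neither was tested.

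Between the FMT groups, 5 of the 33 pathway genes were called higher and 1 lower (7.58% and 2.78% of all genes). Tlr7, the endosomal sensor of single-stranded RNA, was 15.4, 20.5 and 16.2 RPKM in B+A10-FMT and 10.9, 10.1 and 12.02 RPKM in B+Con-FMT (log2 fold change 0.61, adjusted p = 0.00964). Ddx58, which encodes RIG-I, was 21.6, 26.2 and 22.5 RPKM against 18.3, 17.7 and 18.8 RPKM (log2 fold change 0.34, adjusted p = 0.0302), and Tlr3, Jak2 and Il10rb were the other genes called higher. Mavs, the mitochondrial adaptor that relays RIG-I and MDA5 signals, went the other way (log2 fold change -0.30, adjusted p = 0.0132). None of these genes overlapped between the groups. After busulfan alone, 7 of the 33 were called and all 7 were lower, where 9.78% of all genes were called lower and 4.73% higher. Among them were the receptor chain Ifnar1 (log2 fold change -0.29, adjusted p = 0.00542) and Jak1 (log2 fold change -0.27, adjusted p = 0.00778).

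The Trim30 and Trim12 cluster, a set of ubiquitin ligases of which several respond to interferon, had more calls after busulfan. Of its 7 tested genes 5 were called lower and 1 higher after busulfan (9.78% and 4.73% of all genes). Their median log2 fold change was -0.74, that of the members 0.05, and the difference between the lists was not tested. Of the 12 genes of the Ifi200 family, B+A10-FMT mice had 5 called higher against B-sa and 5 against B+Con-FMT, where 1 and 4 of the 47 members and 4.0% and 7.58% of all genes were called higher. Both sets hold close paralogs, so reads may have been split between their genes.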

How the data were processed

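Spleen RNA of 12 male ICR mice (3 per group) was sequenced by the authors, who converted reads to RPKM. Groups and replicate numbers came from the sample labels. The study's methods name SOAPaligner, and the submitters' processing notes name HISAT, Bowtie2 and build mm10; which of them made these values is not given in the sources used here. The deposited RPKM, 1 table per mouse with 60654 RefSeq transcripts, were summed per gene, and 18101 of 18221 genes were named by the RefSeq table (GRCm38.p6). Without read counts no counting interval can be given.

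The 12671 genes that reached 1 RPKM in 3 or more mice entered the test. Values were taken as log2(RPKM + 1) and fitted with limma 3.58.1 (R 4.3.3; its trend and robust options switched on). The 12 mice shared 1 fit without covariates other than group, from which 6 two-sided comparisons were drawn. The Benjamini-Hochberg adjustment ran over all genes of a comparison, and an adjusted p under 0.05 counted as a call. The p-values measure only the spread between these mice. Fold changes are on the log2(RPKM + 1) scale, which understates the change of low genes, and SE and intervals are limma's. The fit was tried on simulated data with noise drawn separately for each gene. That simulation leaves out genes that move together in a mouse, as the members did, so it does not speak to their calls.

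The members, role groups, pathway genes and marker lists were chosen with earlier results of these data known. Full values were given for the called members, for the 3 members of highest mean level, for some members of each role group, and for members with large differences that were not called; the last were chosen after their values were seen. Alternatives were another pseudocount and filters, a replicate block, fits of 2 groups only, other scalings, NM transcripts only, removal of a trend with transcript length, the study's cutoffs (FDR of at most 0.001 and log2 change of at least 1) applied to limma's values, and leaving out each mouse.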

Additional observations from a re-analysis of the deposited data

How the results depend on the processing

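The members' median kept its direction under every setting in the 3 comparisons of B+A10-FMT. In B+Con-FMT versus Con-sa it turned from -0.02 to 0.03 with median-of-ratios scaling, to 0.01 with the length trend removed and to 0.04 without Con-sa mouse 2, and it was -0.07 without Con-sa mouse 3. The number of members called changed more, and the share of all genes called, given in parentheses, moved too. For B+A10-FMT over B+Con-FMT, where 4 of 47 were called (10.4%), the count was 0 with no filter (4.95%), 2 with median-of-ratios scaling (9.84%, median log2 fold change 0.25, with all genes at 0.00), 15 with equal totals outside the globin genes (18.5%, all genes at 0.10), 4 with only the 2 groups compared (8.02%), 1 with NM transcripts only (4.71%), 1 with the length trend removed (7.24%) and 0 at the study's cutoffs; without single mice it ran from 0 to 11 (1.75% to 12.3%). For B+A10-FMT over B-sa, where 1 was called (5.27%), it was 0 with only the 2 groups compared (1.25%), with median-of-ratios scaling (4.86%), with the length trend removed (3.2%) and at the study's cutoffs, 2 with equal totals outside the globin genes (5.71%), and 0 to 3 without single mice (0.837% to 6.57%). In B-sa versus Con-sa, where 1 was called (14.5%), it was 0 with the length trend removed (11.1%) and at the study's cutoffs, and 0 to 4 without single mice (4.02% to 16.6%); under median-of-ratios scaling the 1 gene called was Igtp, higher, in place of Trim25. In B+Con-FMT versus Con-sa, where 1 was called (8.87%), it was 0 with no filter (4.8%), median-of-ratios scaling (8.92%), NM transcripts only (3.29%), the length trend removed (6.44%) and the study's cutoffs, 2 with equal totals outside the globin genes (14.5%), and 0 to 1 without single mice (2.66% to 10.3%). For B+Con-FMT over B-sa it was 0 to 1 without single mice (0.15% to 3.69%). The cause of these moves was not tested, except that no filter adds genes to the adjustment (18221 against 12671). The log2 fold change of Isg15 between the FMT groups ran from -0.18 without B+A10-FMT mouse 2 to 0.35 without mouse 1.

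The replicate numbers did not pair the mice: correlations of deviations from the group means ran from -0.37 to 0.30 for mice of the same number and from -0.43 to 0.51 for mice of other numbers. With the replicate number as a block, 5 members were called between the FMT groups (Eif2ak2, Gbp3, Ifih1, Irgm2 and Rtp4, where 7.24% of all genes were) and 0 in B+Con-FMT versus Con-sa (6.1%).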
